A study of Homo sapiens with 11 samples.

Results

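ABC transporter genes encode membrane pumps, and a few relatives without membrane spans, and 31 of them were followed in 2 human pancreatic cancer cell lines with and without siRNA against MYEOV. Members were taken by name and level: protein-coding genes of GENCODE 29 whose symbol is ABC, a letter from A to G and a digit, with no hyphen, and with at least 1 CPM (counts scaled to the library total) in 2 or more of the 11 libraries. Of 45 such genes before the rule on level, 31 passed and 14 were left out. The count tables list 58735 genes in all, of which 13115 protein-coding genes met the same rule on level.

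The libraries were poly(A) RNA from AsPC-1 and PANC-1, established lines of pancreatic ductal adenocarcinoma. AsPC-1 gave 2 control libraries and 3 MYEOV siRNA libraries, and PANC-1 gave 3 of each. MYEOV siRNA cells were taken 48 hours after transfection. The labels name no other allele, agent or deletion in any group. The control titles carry the mark WT and the labels call these cells untreated, yet the protocol also lists a negative-control siRNA, so what the control cells received is not settled. If they were untreated, MYEOV siRNA and transfection cannot be told apart. The protocol lists 2 siRNAs against MYEOV, and the numbers of the siRNA libraries may stand for either siRNAs or replicates. Nothing in the labels says that libraries of a group came from separate cultures, and p-values therefore reflect library-to-library spread that could be technical alone. The series text speaks of knocking out the gene, while the method was siRNA. AsPC-1 was grown in RPMI 1640 and PANC-1 in DMEM, so line and medium cannot be told apart.

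The depth was 12113093 to 15066456 counts per library. MYEOV itself went to 35.9% of the control level in AsPC-1 (adjusted p = 1.95e-16 by Benjamini-Hochberg, quasi-likelihood test of edgeR) and to 54.4% in PANC-1 (adjusted p = 4.19e-06 in edgeR), with no overlap between the groups' libraries in either line. All 8 markers of pancreatic ductal adenocarcinoma cells were at 1 CPM or more in every library, at a summed level of 16868 to 17051 CPM in AsPC-1 controls, 16822 to 17279 CPM in AsPC-1 siRNA libraries, 2585 to 2892 CPM in PANC-1 controls and 2259 to 2280 CPM in PANC-1 siRNA libraries. The PANC-1 groups did not overlap in that sum, with KRT8 and KRT18 called lower and CDH1 and CLDN4 higher after siRNA in edgeR. No acinar or islet marker reached 1 CPM, and the endothelial list summed to at most 0.67 CPM. The 5 fibroblast markers summed to 1.38 to 2.15 CPM in AsPC-1, to 36.4 to 43.7 CPM in the PANC-1 controls and to 50.6 to 52.4 CPM in the PANC-1 siRNA libraries, with 2 of the 5 at 1 CPM or more in every PANC-1 library. The 5 leukocyte markers summed to 27.5 to 30.0 CPM in AsPC-1, mainly LYZ, and to at most 1.70 CPM in PANC-1. The part of these lists in the results below was not tested.

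ABC proteins bind and split ATP in a pair of conserved nucleotide-binding domains, and most couple this to moving a substrate across a membrane. Full transporters carry the pair in a single chain, while ABCG2 and the ABCD proteins carry a single such domain and work as dimers. The family divides into the lettered subfamilies A to G: the A group moves mainly lipids, the B group peptides, haem precursors, bile salts and drugs, the C group glutathione and other organic anion conjugates, the D group fatty acyl-CoA or cobalamin, and the G group sterols and drugs. The E and F proteins have no membrane spans and act on ribosomes. Several B, C and G members export chemotherapeutic drugs or their conjugates and are studied for that in pancreatic cancer, where ABCC1, ABCC3, ABCC5 and ABCG2 are often examined.

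In total 25 members were at 1 CPM or more in every library. ABCB11, the bile salt export pump, and ABCG1, a sterol exporter, reached 1 CPM in AsPC-1 libraries but in no PANC-1 library. ABCA4, the retinoid transporter of photoreceptors, and ABCG4, a sterol exporter best known from brain, did so in PANC-1 only. ABCA4 stood just inside the rule, with 2 libraries at 1 CPM, and ABCC11 just outside it, with 1 library and at most 1.07 CPM. ABCB1, the gene of P-glycoprotein, was left out with 14 counts over all 11 libraries and at most 4 in any of them. ABCC9, a subunit of ATP-sensitive potassium channels, had 0 counts everywhere, which allows a level of up to 0.0202 CPM over the summed libraries, counting error only. The other 12 left out were ABCA12, ABCA6, ABCA8, ABCA9, ABCB4, ABCB5, ABCC8, ABCC11, ABCC12, ABCD2, ABCG5 and ABCG8.

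Sequences are shown for 2 properties of the members that the rule did not use. The first is the 6-base word TCATGT in 3' untranslated regions, since a longer word containing it had been found on these same data among genes lower after siRNA, so its relation to falls in general is no independent support here. All 31 members had an annotated 3' untranslated region, and 10 of them held the 6-base word. The word stood in 3 of the 6 members with a lower call in either line, ABCG2, ABCC5 and ABCD4, and in 1 of the 6 with a higher call, ABCC2, with windows of 28 bases given below 5' to 3' (GRCh38, GENCODE 29, the word in capitals).
ABCG2, chr4:88092028-88092055, minus strand: aacccaagacaTCATGTatcgcatatta
ABCC5, chr3:183921093-183921120, minus strand: ttattccatatTCATGTaaacaaaattt
ABCD4, chr14:74286163-74286190, minus strand: atgatttcagaTCATGTttgctaaagag
ABCC2, chr10:99852398-99852425, plus strand: tgaatatatttTCATGTttctggggcat

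Among the members tested in AsPC-1, 10 of 29 held the 6-base word, beside 35.3% of 11881 genes overall that were tested and had such a region annotated. In PANC-1 it was 9 of 29, beside 35.6% of 12445 genes. Over all these genes in AsPC-1, 26.2% of those with the word were called lower, against 13.1% of those without. Called higher were 16.8% and 20.3%, and in PANC-1 both pairs of shares differed in the same directions. The word's counts among members called lower and higher go the way of this background. Nothing about the family is read from them. The word was absent from the annotated 3' untranslated regions of ABCC1 and ABCC3, both called in AsPC-1, and 6 of its 10 carriers were called in neither line.

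The second property is the base composition of the promoter. RefSeq promoter windows (250 bases before to 50 after the start, GRCh38.p14) were matched for 25 members, ABCC1 and ABCC3 not among them. The window of ABCC2, whose level was 12.7-fold higher in AsPC-1 than in PANC-1 controls, and that of ABCC4, which was 29.6-fold higher in PANC-1, are printed 5' to 3' with every CpG in capitals, because they hold the fewest and the most CpGs among the members' windows.
ABCC2, chr10:99782390-99782689, plus strand: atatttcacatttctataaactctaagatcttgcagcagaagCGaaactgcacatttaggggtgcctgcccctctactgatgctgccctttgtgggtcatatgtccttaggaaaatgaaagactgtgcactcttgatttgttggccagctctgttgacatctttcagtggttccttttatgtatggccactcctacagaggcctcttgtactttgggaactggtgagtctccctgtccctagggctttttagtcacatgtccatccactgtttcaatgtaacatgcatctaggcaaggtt
ABCC4, chr13:95301402-95301701, minus strand: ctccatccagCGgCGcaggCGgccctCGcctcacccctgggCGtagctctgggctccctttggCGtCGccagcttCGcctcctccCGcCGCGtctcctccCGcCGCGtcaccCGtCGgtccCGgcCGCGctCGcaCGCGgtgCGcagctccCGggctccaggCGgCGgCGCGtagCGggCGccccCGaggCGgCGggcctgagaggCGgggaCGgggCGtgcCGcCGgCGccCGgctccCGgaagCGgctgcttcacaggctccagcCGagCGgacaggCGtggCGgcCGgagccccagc

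The ABCC2 window was 45% G or C with 1 CpG, and the ABCC4 window 79.7% with 47. Over the 13 members higher in PANC-1 controls that had a window, G or C made up 60.3% to 79.7%, with a median of 68.3%. Over the 12 higher in AsPC-1 controls it ranged from 25% to 77.3%, with a median of 60.4%. All 5 windows below 50%, those of ABCA10, ABCA13, ABCB11, ABCC2 and ABCG2, belonged to members higher in AsPC-1. This split was noticed after the values were seen and was not tested. ABCB11 and ABCG4, 1 on each side, passed the rule on level through 1 line only, so their sides were fixed in advance. Among all called genes with a window the medians were 66.0% for the 4644 higher in PANC-1 and 65.0% for the 3941 higher in AsPC-1, with 7.67% and 10.7% below 50%. The RefSeq start lay within 100 bases of a GENCODE transcript start for 24 of the 25 members. The exception was ABCG2, at 304 bases, so its window describes a start other than those in GENCODE.

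Short motifs were searched on both strands of the same windows. The GC box GGGCGG stood in 64.0% of member windows and 44.9% of all 34796 promoters, and the antioxidant response core TGACNNNGC in 28.0% and 13.3%. The E box CACGTG stood in 12% of member windows against 7.2% of all, TATAAA in 16% against 11.6%, and the nuclear receptor half-site AGGTCA in 8.0% against 13.8%. A match is a run of letters and not a measured binding site. The median share of G or C was 65.7% in member windows and 58.7% in all promoters. The latter were not limited to genes with counts in these cells. The part of base composition in the motif shares was not tested.

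The first question was how the lines differ at baseline, since each transporter's response starts from its own level there. Levels were put on a scale per length, counts per kilobase of exon brought to the same total in every library (a TPM-type value). The length merges all annotated exons of a gene and is not that of the transcript expressed. Order and shares between genes therefore depend on it. On this scale ABCG2 led in AsPC-1 controls at 139, followed by ABCC3 at 117, ABCE1 at 88.0, ABCC1 at 65.8 and ABCF1 at 63.9. Before division by length (9614 bases for ABCC3, 5044 for ABCG2), ABCC3 had more counts than ABCG2 in both controls. These were 5661 and 4912 against 3637 and 2993. In PANC-1 controls ABCC1 led at 237, followed by ABCF1 at 147 and ABCE1 at 86.9, while ABCG2 stood at 49.3. In AsPC-1 controls each of the first 10 places was separated from the next with no overlap of libraries, while in PANC-1 the run ABCG2, ABCF3, ABCA3, ABCC3 overlapped from 1 neighbour to the next. Over all 30 neighbouring places, 8 overlapped in AsPC-1 controls and 14 in PANC-1 controls. The first 5 genes held 59.9% ± 0.13 of the summed family level in AsPC-1 controls (SD, n = 2) and 58.9% ± 0.023 in PANC-1 controls (SD, n = 3).

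**Figure D1:**
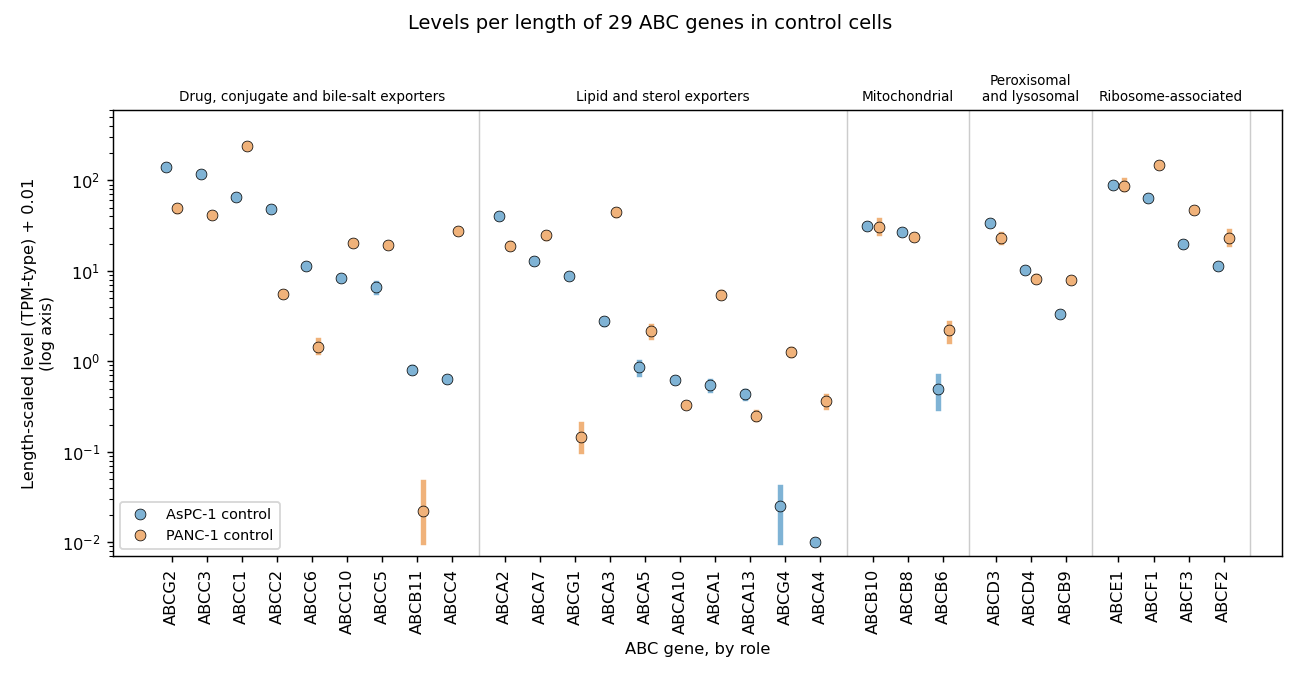
Length-scaled level (TPM-type value, with 0.01 added, log axis) of 29 of the 31 ABC genes in control libraries, grouped by role; points are means of 2 AsPC-1 and 3 PANC-1 libraries and vertical bars run from the lowest to the highest library. On this scale, which divides by merged exon length, ABCG2 leads in AsPC-1 at 139 and ABCC1 in PANC-1 at 237. The drug, conjugate and bile-salt exporters hold both the highest and some of the lowest levels.

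By role, the 9 exporters of drugs, glutathione conjugates and bile salts held 50.3% ± 0.0032 of the family's summed level per length in AsPC-1 controls (SD, n = 2) and 39.5% ± 0.39 in PANC-1 controls (SD, n = 3). The 4 ribosome-associated proteins held 23.1% ± 0.47 and 29.9% ± 0.68. The 10 lipid and sterol exporters held 8.48% ± 0.39 and 9.75% ± 0.57. The 4 mitochondrial members held 10.0% ± 0.18 and 9.25% ± 0.49, and the 4 peroxisomal and lysosomal members 8.11% ± 0.096 and 11.6% ± 0.39. These shares count RNA and say nothing of how many cells or how much RNA per cell gave it, which bulk libraries cannot tell apart.

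All 31 members passed the test between the controls, 17 higher in PANC-1 and 14 higher in AsPC-1, where 76.4% of the 16182 genes tested were called, 40.3% higher and 36.1% lower in PANC-1 (edgeR quasi-likelihood test, adjusted p under 0.05). Of the members 18 were called with a difference of more than 2-fold, as were 40.6% of all genes. ABCB11, ABCG1, ABCA4 and ABCG4 passed the rule on level through 1 line only and so had to differ, and their calls add nothing to the count. The median log2 difference was 0.41 over members and 0.06 over all genes.

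Of the 9 exporters of drugs, conjugates and bile salts, 4 were higher in PANC-1 and 5 in AsPC-1. Over all genes tested, 40.3% and 36.1% were called in these directions. The rule on level fixed the direction of ABCB11, and nothing is read from the count. ABCC2 (MRP2), an apical exporter of glucuronide and glutathione conjugates, stood at 152 and 138 TMM-scaled CPM (counts per library size after correction by TMM factors) in AsPC-1 controls and at 12.1, 10.9 and 11.6 in PANC-1. The lines lay far apart, with a log2 of PANC-1 over AsPC-1 of -3.67 (SE 0.08, adjusted p = 4.84e-15 in edgeR). ABCC3 (MRP3), its basolateral relative, stood at 430 and 435 CPM in AsPC-1 controls and at 109, 105 and 103 in PANC-1. The log2 difference was -2.06 (SE 0.06, adjusted p = 3.93e-14 in edgeR), again with no overlap. ABCG2, the breast cancer resistance protein, stood at 276 and 265 CPM against 69.0, 68.6 and 61.3, a log2 difference of -2.05 (SE 0.07, adjusted p = 3.45e-13 in edgeR). ABCC6, the hepatic transporter whose loss causes pseudoxanthoma elasticum, stood at 34.0 and 32.3 CPM against 2.80, 2.50 and 3.47, a log2 difference of -3.51 (SE 0.13, adjusted p = 2.36e-12 in edgeR). Its partial copies ABCC6P1 and ABCC6P2 were also lower in PANC-1, by 3.65 and 2.20 on the log2 scale in the same edgeR fit (adjusted p = 1.5e-09 and 2.1e-08). How the counting treated reads shared by the 3 is not stated, so their levels are uncertain.

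Of these exporters higher in PANC-1, ABCC4 (MRP4), an exporter of cyclic nucleotides and nucleoside analogues, differed most. It stood at 2.20 and 1.95 CPM in AsPC-1 controls and 62.8, 64.1 and 62.0 in PANC-1. All PANC-1 libraries lay above all AsPC-1 libraries, by 4.89 on the log2 scale (SE 0.13, adjusted p = 2.92e-14 in edgeR). ABCC1 (MRP1), an exporter of glutathione conjugates and of anthracyclines and vinca alkaloids, stood at 196 and 188 CPM in AsPC-1 controls and 496, 466 and 478 in PANC-1, a log2 difference of 1.30 (SE 0.06, adjusted p = 1.21e-11 in edgeR). ABCC5 (MRP5), an exporter of cyclic nucleotides, stood at 26.5 and 31.6 against 59.3, 57.3 and 58.9 CPM, a log2 difference of 0.99 (SE 0.09, adjusted p = 8.23e-08 in edgeR). ABCC10 (MRP7) was higher in PANC-1 by 0.75 (SE 0.08, adjusted p = 9.14e-07 in edgeR). ABCC1 and ABCC6 are neighbours on chromosome 16, 5854 bases apart with their ends facing (chr16:15949577-16143074 on the plus strand and chr16:16148928-16223522 on the minus strand), and differed between the lines in opposite directions.

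ABCB11 had 58 counts over the 2 AsPC-1 controls and 1 over the 3 PANC-1 controls, a depth-scaled ratio of 106 with a 95% counting interval of 18.3 to 4270. Such an interval covers counting error only.

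Among the lipid and sterol exporters, 6 were higher in PANC-1 and 4 in AsPC-1, beside 40.3% and 36.1% of all genes tested. The rule on level fixed the direction of ABCA4, ABCG4 and ABCG1 among them, and nothing is read from the count. ABCA3, the phospholipid transporter of lung surfactant bodies, stood at 7.89 and 8.59 CPM in AsPC-1 controls and 99.6, 86.1 and 96.7 in PANC-1, a log2 difference of 3.49 (SE 0.11, adjusted p = 1.80e-13 in edgeR). ABCA1, which loads cholesterol onto apolipoprotein A-I, stood at 2.66 and 2.04 CPM against 15.7, 17.4 and 15.9, a log2 difference of 2.75 (SE 0.17, adjusted p = 7.84e-10 in edgeR). Its partner in cholesterol efflux, ABCG1, went the other way, at 21.0 and 20.1 CPM in AsPC-1 controls against 0.196, 0.147 and 0.316. That is 503 summed counts against 10, a ratio of 92.1 in favour of AsPC-1 (95% counting interval 49.7 to 193). Per length, ABCG1 stood at 8.71 and ABCA1 at 0.536 in AsPC-1 controls, and ABCA1 at 5.38 and ABCG1 at 0.134 in PANC-1 controls.

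ABCG4 had 95 counts in PANC-1 controls and 1 in AsPC-1, a ratio of 51.9 (95% counting interval 9.09 to 2070). ABCA4 had 36 counts in PANC-1 controls and 0 in AsPC-1, and the 95% counting interval of the ratio starts at 5.06. Set against a limit of 3 counts over the AsPC-1 controls, it was 6.55-fold higher. ABCA2 was 3.10-fold, ABCA10 2.82-fold and ABCA13 2.57-fold lower in PANC-1. ABCA5 and ABCA7 were higher, by 0.76 and 0.41, and ABCA5 and ABCA10 share exon sequence on the same strand, so reads between them are uncertain.

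None of the intracellular members differed between the controls as much as ABCC4, ABCA3 or ABCG1. ABCB6 and ABCD3 still had larger absolute log2 differences than ABCC5 and ABCC10. ABCD3, a peroxisomal importer of branched-chain and dicarboxylic acyl-CoA, stood at 99.8 and 98.3 CPM in AsPC-1 controls and 42.4, 50.8 and 46.2 in PANC-1, a log2 difference of -1.12 (SE 0.08, adjusted p = 4.70e-09 in edgeR). ABCD4, which works in lysosomal cobalamin release, was lower in PANC-1 by 0.87 on the log2 scale, and ABCB9, a lysosomal peptide transporter, was higher by 0.68. Of the mitochondrial members, ABCB6 was higher in PANC-1 (138 counts against 23, a ratio of 3.28 with a 95% counting interval of 2.10 to 5.34, on 8 and 15 counts in the AsPC-1 controls; log2 difference 1.68, and 1.188 or 2.305 without AsPC-1 control replicate 1 or 2), and ABCB8 and ABCB10 were lower, with log2 differences of -0.73 and -0.62. ABCE1, the ribosome recycling factor, was lower in PANC-1 with a log2 difference of -0.57, and ABCF1, ABCF2 and ABCF3 were higher by 0.64, 0.50 and 0.69.

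**Figure D2:**
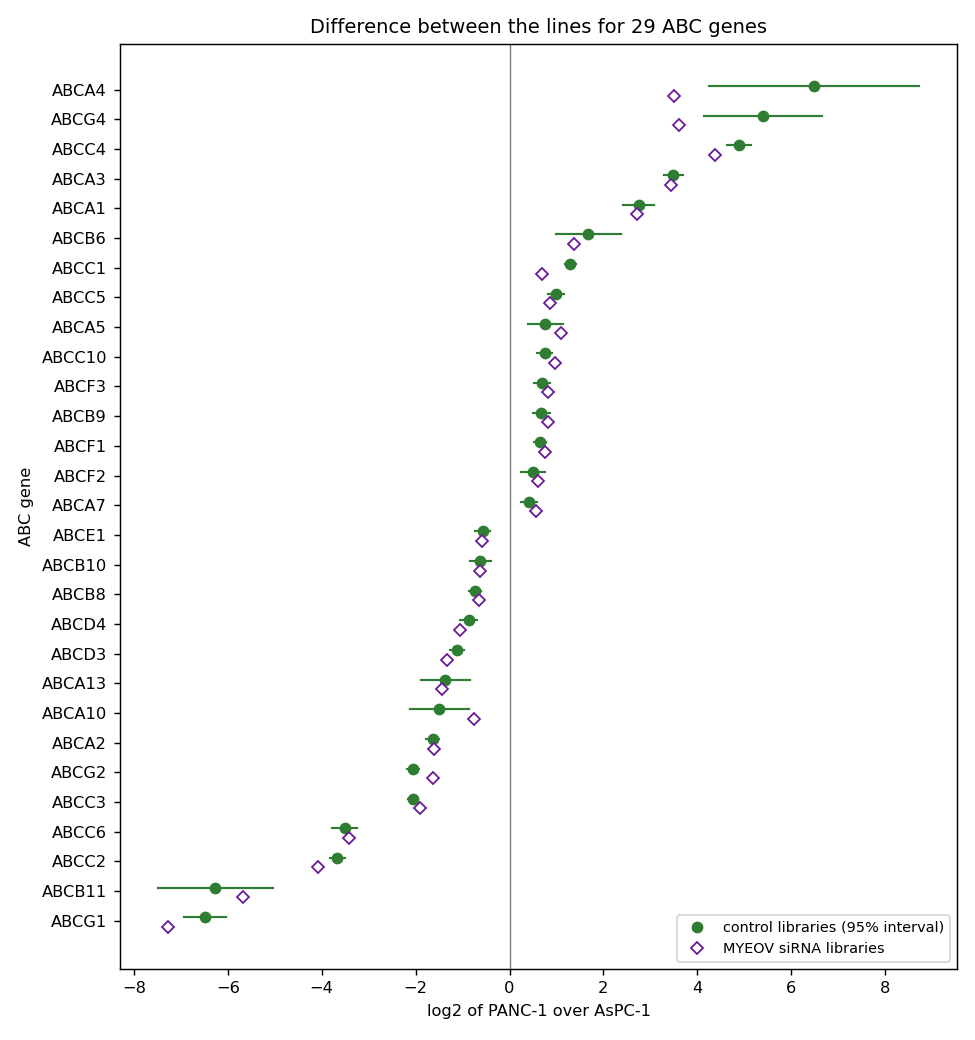
Difference between the lines (log2 of PANC-1 over AsPC-1) for 29 of the 31 ABC genes; filled circles are control libraries with the 95% interval and open diamonds are the MYEOV siRNA libraries. All 29 lie on the same side of 0 in both kinds of library, and ABCC1 moves from 1.30 to 0.70. The rule on level fixed the side of ABCB11, ABCG1, ABCA4 and ABCG4. The values of ABCA4, ABCG4 and ABCB11 rest on 0 or 1 counts in the lower line of the controls.

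The difference between the lines kept its direction and its call for all 31 members when the siRNA libraries were compared instead. ABCB11, ABCG1, ABCA4 and ABCG4 add nothing here either, since the rule on level used the siRNA libraries too. The difference of ABCC1 was then 0.70 (SE 0.04, adjusted p = 1.79e-12 in edgeR) and that of ABCC4 was 4.37.

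The second question was what MYEOV siRNA did to the family in AsPC-1. Of the 31 members 29 were tested there, ABCA4 and ABCG4 being too low, and 10 were called, 6 higher and 4 lower. That is close to the share over all 14304 genes tested, 32.9% called, 16.6% higher and 16.3% lower, so the count is not a result about the family. The median log2 fold change was -0.05 over the members and -0.00 over all genes. Members are therefore described one by one.

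ABCC1 had the clearest rise. It stood at 196 and 188 CPM in the AsPC-1 controls and at 316, 302 and 292 after siRNA. Every siRNA library lay above both controls, a 1.56-fold rise with a log2 fold change of 0.64 (SE 0.04, adjusted p = 2.32e-12 in edgeR). In PANC-1 ABCC1 stood at 496, 466 and 478 CPM in controls and 494, 490 and 490 after siRNA. The PANC-1 groups overlapped, with a log2 fold change of 0.03 (SE 0.04; 95% interval -0.05 to 0.12, adjusted p = 0.702 in edgeR). The responses of the lines differed by -0.63 (PANC-1 minus AsPC-1, SE 0.06; adjusted p = 2.69e-06 in the interaction test of edgeR).

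ABCG2 moved the other way. It stood at 276 and 265 CPM in the AsPC-1 controls and at 197, 189 and 201 after siRNA, with all siRNA libraries below both controls. It fell to 71.5% of the control level, a log2 fold change of -0.48 (SE 0.04, adjusted p = 2.29e-10 in edgeR). In PANC-1 ABCG2 stood at 69.0, 68.6 and 61.3 CPM in controls and 65.5, 62.3 and 62.4 after siRNA. The PANC-1 groups overlapped there too (log2 fold change -0.06, SE 0.06; 95% interval -0.19 to 0.06, adjusted p = 0.611 in edgeR). The interaction was 0.41 (SE 0.08, adjusted p = 0.00317 in edgeR). ABCC1 and ABCG2 were the 2 of 31 members that passed the interaction test, as did 4.36% of 16680 genes. Both were called in AsPC-1, and their approximate 95% intervals in PANC-1 did not reach the AsPC-1 values.

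On the scale per length, which rests on merged exon lengths, the order at the top of the family changed with these moves. ABCG2, ABCC3, ABCE1 and ABCC1 were separate in that order in AsPC-1 controls. After siRNA ABCC1 stood first at 101, ABCC3 at 99.3 and ABCG2 at 97.9, with libraries overlapping between neighbours. The exporters of drugs, conjugates and bile salts together held 49.1% ± 0.44 of the family level after siRNA (SD, n = 3), beside 50.3% in the controls.

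**Figure D3:**
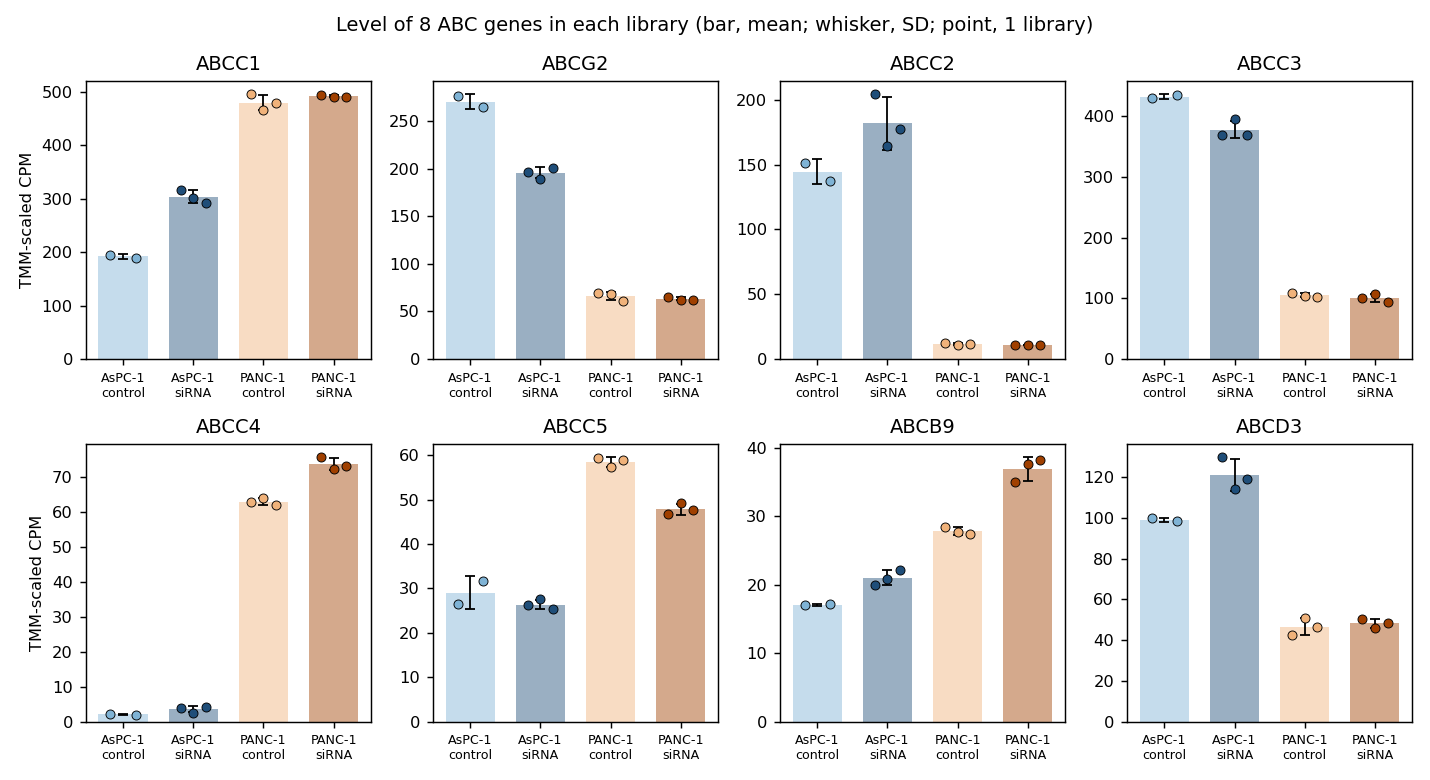
TMM-scaled CPM of 8 ABC genes in each of the 11 libraries, with axes from 0; bars are group means, whiskers SDs and points single libraries. ABCC1 rises and ABCG2 falls in AsPC-1 with no overlap of libraries, while in PANC-1 the control and siRNA points of both genes overlap.

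Of the other drug and conjugate exporters in AsPC-1, ABCC2 stood at 152 and 138 CPM in controls and 204, 164 and 177 after siRNA. All siRNA libraries lay above both controls, and it rose 1.24-fold (log2 fold change 0.31, SE 0.06, adjusted p = 2.29e-04 in edgeR). ABCC3 stood at 430 and 435 CPM in controls and 370, 395 and 370 after siRNA, below both controls, and fell to 86.5% (log2 fold change -0.21, SE 0.04, adjusted p = 5.28e-05 in edgeR). ABCC4 stood at 2.20 and 1.95 CPM in controls and 3.93, 2.63 and 4.14 after siRNA, at few counts. It rose 1.69-fold with a wide error (log2 fold change 0.76, SE 0.26, adjusted p = 0.0248 in edgeR), and the call was lost with DESeq2 (adjusted p = 0.115), without AsPC-1 control replicate 1 or 2 (adjusted p = 0.095 and 0.142 in edgeR) and without siRNA replicate 1 or 3 (adjusted p = 0.0771 and 0.0957 in edgeR). ABCC5, ABCC6, ABCC10 and ABCB11 were not called, with log2 fold changes of -0.15, -0.11, -0.18 and -0.53. In this role 3 of the 9 exporters, ABCC4 among them, were called higher and 2 lower, beside 16.6% and 16.3% of all genes, and nothing is read from that count.

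Among the peroxisomal and lysosomal members, ABCD3 stood at 99.8 and 98.3 CPM in AsPC-1 controls and 130, 114 and 119 after siRNA. The groups did not overlap, and it rose 1.21-fold (log2 fold change 0.27, SE 0.05, adjusted p = 1.43e-04 in edgeR). ABCB9 stood at 17.0 and 17.2 CPM in controls and 20.0, 20.9 and 22.2 after siRNA, all above the controls. It rose 1.22-fold (log2 fold change 0.28, SE 0.09, adjusted p = 0.0214 in edgeR), and the call was lost with DESeq2 (adjusted p = 0.119) and without either AsPC-1 control or siRNA replicate 3 (adjusted p = 0.130, 0.0751 and 0.0792 in edgeR).

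Of the 4 mitochondrial members 1 was called in AsPC-1. ABCB10, which is needed for haem synthesis in red cell precursors, stood at 51.1 and 52.7 CPM in controls and 60.2, 59.6 and 61.8 after siRNA, with no overlap. It rose (log2 fold change 0.21, SE 0.06, adjusted p = 0.00606 in edgeR), and the call was lost without control replicate 1 (adjusted p = 0.109 in edgeR) and in a fit over all 4 groups (adjusted p = 0.14 in edgeR). Of the 4 ribosome-associated proteins ABCF3, a translation regulator, stood at 42.5 and 36.6 CPM in controls and 34.5, 33.4 and 34.7 after siRNA. It fell (log2 fold change -0.23, SE 0.07, adjusted p = 0.0165 in edgeR). Control replicate 1 was the higher of the controls, and without it the log2 fold change was -0.12 and the call was lost (adjusted p = 0.385 in edgeR), as it was without siRNA replicate 2 (adjusted p = 0.0587 in edgeR), in a fit over all 4 groups (adjusted p = 0.0583 in edgeR) and with DESeq2 (adjusted p = 0.100).

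None of the 8 lipid and sterol exporters tested in AsPC-1 was called by edgeR. At an unadjusted p under 0.05 there was 1, ABCA2, and DESeq2 called 0 of the 7 it tested. ABCA1 stood at 2.66 and 2.04 CPM in controls and 2.59, 3.04 and 3.31 after siRNA, and ABCG1 at 21.0 and 20.1 against 18.9, 18.7 and 20.1. The groups overlapped for ABCA1 (log2 fold change 0.32, 95% interval -0.17 to 0.80). For ABCG1 they lay next to each other without overlap, the tie being one of rounding (log2 fold change -0.11, 95% interval -0.29 to 0.07).

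The third comparison was MYEOV siRNA against control in PANC-1, where 29 members were tested, ABCB11 and ABCG1 being too low, and 4 were called, 2 higher and 2 lower. Over all 14929 genes tested 9.08% were called, 4.16% higher and 4.92% lower. The count of members is small and is read as no result about the family. The median log2 fold change was 0.04 over the members and -0.00 over all genes.

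ABCB9 stood at 28.5, 27.7 and 27.4 CPM in PANC-1 controls and 35.0, 37.6 and 38.2 after siRNA. All siRNA libraries lay well above all controls, a 1.32-fold rise with a log2 fold change of 0.41 (SE 0.07, adjusted p = 0.00284 in edgeR). It was called higher in both lines, and the responses differed by 0.11 (SE 0.11; 95% interval -0.11 to 0.33, adjusted p = 0.709 in edgeR). ABCB9 shares exon sequence on the opposite strand with ARL6IP4 and OGFOD2, and without a stated strand setting reads of these cannot be told apart. OGFOD2 was at a mean of 5.11 CPM and ARL6IP4 at a lower one in AsPC-1 controls, and neither was called in either line (adjusted p from 0.26 to 0.85 in edgeR).

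ABCC4 stood at 62.8, 64.1 and 62.0 CPM in PANC-1 controls and 75.7, 72.4 and 73.3 after siRNA, with no overlap. It rose 1.17-fold (log2 fold change 0.23, SE 0.06, adjusted p = 0.0214 in edgeR), and ABCB9 and ABCC4 were the members called in both lines. Leaving out PANC-1 control replicate 1 or 3, or siRNA replicate 1, 2 or 3, took the adjusted p of ABCC4 to between 0.0516 and 0.134. ABCC5 stood at 59.3, 57.3 and 58.9 CPM in controls and 46.7, 49.2 and 47.6 after siRNA, all below the controls. It fell to 81.7% (log2 fold change -0.29, SE 0.06, adjusted p = 0.00759 in edgeR), with the call lost without siRNA replicate 1 (adjusted p = 0.0647 in edgeR). ABCD4 stood at 20.8, 18.4 and 18.4 CPM in controls and 15.6, 15.7 and 14.8 after siRNA. It fell to 79.9% (log2 fold change -0.32, SE 0.09, adjusted p = 0.0364 in edgeR), and the adjusted p was 0.0854 with DESeq2 and between 0.0616 and 0.127 without PANC-1 control replicate 1 or 3 or siRNA replicate 1, 2 or 3.

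**Figure D4:**
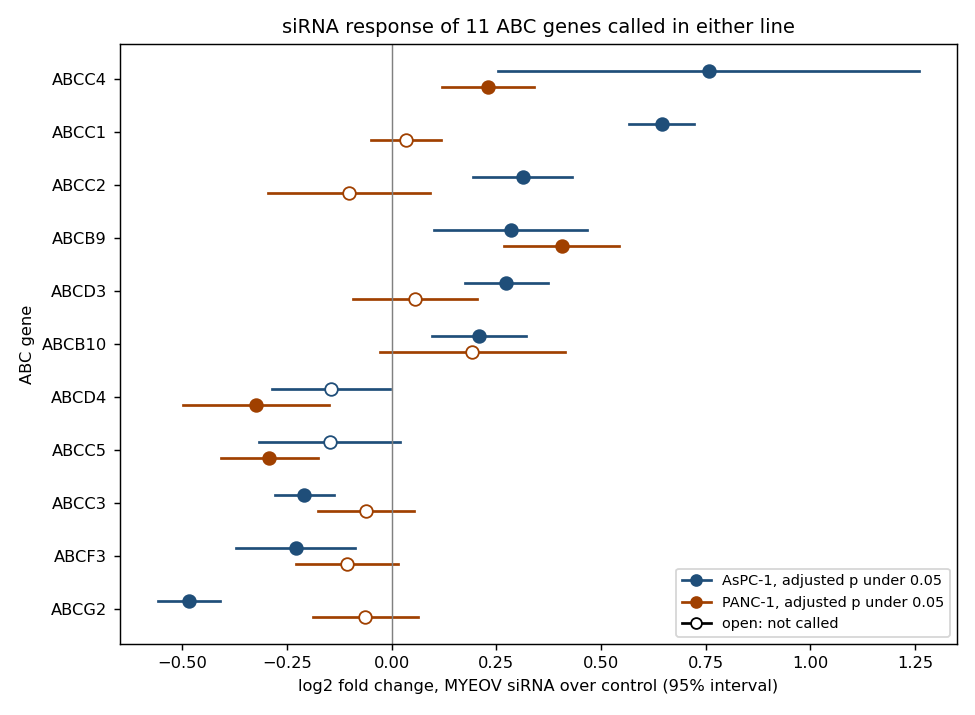
Log2 fold change of MYEOV siRNA over control, with 95% interval, for 11 of the 12 ABC genes called in either line; filled points passed an adjusted p of 0.05 in edgeR and open points did not. ABCC1 (0.64) and ABCG2 (-0.48) in AsPC-1 lie apart from their PANC-1 values, while ABCB9 and ABCC4 are filled in both lines.

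Beyond these 12 members, 19 were called in neither line. In PANC-1 the 9 lipid and sterol exporters tested had a median log2 fold change of 0.25 with 0 calls by edgeR, 1 at an unadjusted p under 0.05 (ABCA1) and 0 of 5 by DESeq2. ABCA1 stood at 15.7, 17.4 and 15.9 CPM in controls and 19.4, 17.2 and 22.5 after siRNA, overlapping at the siRNA library of 17.2. ABCA3 stood at 99.6, 86.1 and 96.7 against 101, 105 and 101 CPM, a log2 fold change of 0.12 (adjusted p = 0.286 in edgeR). The 4 mitochondrial members gave 0 calls in edgeR, 0 at an unadjusted p under 0.05 and 0 of 3 in DESeq2. The 4 ribosome-associated proteins gave 0 calls in edgeR, 1 at an unadjusted p under 0.05, ABCF1 (log2 fold change 0.17, SE 0.05, adjusted p = 0.0639 in edgeR), and 0 in DESeq2. ABCE1, at a high level, had log2 fold changes of 0.02 (95% interval -0.05 to 0.10) in AsPC-1 and 0.01 (95% interval -0.14 to 0.16) in PANC-1.

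ABC genes with other symbols were read beside the family. TAP1 and TAP2, which load peptides for antigen presentation, were both higher in PANC-1 controls, by 0.87 and 1.46 on the log2 scale (adjusted p = 2.8e-07 and 3.6e-08 in edgeR). Neither was called after siRNA in either line by edgeR or DESeq2, and neither reached an unadjusted p under 0.05. CFTR, the chloride channel of the ABCC group, was at a mean of at most 0.12 CPM in any group and was not tested.

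Lists of genes that work with the transporters put the members' moves beside those of their pathways. The share to read them against is 32.9% called in AsPC-1 and 9.08% in PANC-1, and a partner is said to rise or fall only where it passed an adjusted p of 0.05 in edgeR. Glutathione is the co-substrate of ABCC1 and ABCC2, and of 15 glutathione genes tested in AsPC-1 6 were higher and 1 lower, while in PANC-1 3 of 17 were higher and 0 lower. SLC7A11, the cystine importer, rose from a mean of 65.7 to 112 CPM in AsPC-1 (log2 fold change 0.75) and from 25.2 to 36.3 CPM in PANC-1 (0.53). GCLC, the catalytic subunit of the rate-limiting enzyme of glutathione synthesis, rose by 0.60 and 0.28, and the responses differed (adjusted p = 0.012 in the interaction test of edgeR). GCLM, its modifier subunit, rose by 0.44 in AsPC-1, with a log2 fold change of 0.34 in PANC-1 that was not called (adjusted p = 0.13 in edgeR).

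Of 18 nuclear receptors and other regulators of ABC genes tested in AsPC-1, 5 were higher and 4 lower, and in PANC-1 1 of 16 was higher and 2 were lower. PPARA, a fatty acid receptor, fell by 0.90 in AsPC-1 and by 0.30 in PANC-1 on the log2 scale. YBX1, a Y-box binding protein, rose by 0.42 and 0.17, and the liver X receptor NR1H2 rose by 0.35 in AsPC-1 with 0.09 in PANC-1, not called. Between the controls, NR1I2, the pregnane X receptor, stood at a mean of 94.8 CPM in AsPC-1 and 0 in PANC-1, and NR1H3, the other liver X receptor, at 152 and 6.95 CPM.

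Sterol partners had 5 higher and 1 lower of 8 tested in AsPC-1, and 2 higher and 1 lower of 10 in PANC-1. NPC2, which carries cholesterol out of lysosomes, fell by 1.56 and 1.36 on the log2 scale. SCARB1, a receptor for high-density lipoprotein, rose by 0.41 in AsPC-1 with -0.03 in PANC-1. APOE stood at a mean of 0.17 CPM in AsPC-1 controls and 93.1 CPM in PANC-1.

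Proteins that anchor pumps at the membrane gave 1 higher and 3 lower of 6 tested in AsPC-1, and 1 higher and 2 lower of 5 in PANC-1. MSN, which encodes moesin, fell by 1.91 and 0.63, CAV1 fell by 0.35 and 0.16, and RDX, which encodes radixin, the anchor of ABCC2 at apical membranes of liver cells, rose by 0.34 and 0.25. NHERF1 was counted under its older symbol SLC9A3R1.

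Genes of gemcitabine handling gave 3 higher and 1 lower of 12 tested in AsPC-1. SLC28A3, a concentrative nucleoside carrier, went from a mean of 0.87 to 2.32 CPM (log2 fold change 1.41), TYMS rose by 0.32, and CDA, which inactivates gemcitabine, fell by 0.21. In PANC-1 0 of 10 were called by edgeR, 2 reached an unadjusted p under 0.05 (RRM1 and RRM2) and 0 of 10 were called by DESeq2. In controls SLC29A1, the main gemcitabine importer, stood at 50.8 CPM in AsPC-1 and 328 CPM in PANC-1, and CDA at 45.5 and 0.40 CPM.

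Of 17 haem and iron-sulfur genes, 3 were higher and 4 lower in AsPC-1 and 2 higher and 1 lower in PANC-1, with ISCA1, an iron-sulfur assembly factor, down by 0.92 and 0.75, GLRX5 by 0.44 in AsPC-1, and SLC25A38, a mitochondrial glycine carrier, up by 0.36 in AsPC-1. Of 18 peroxisome genes, 3 were higher and 5 lower in AsPC-1 and 1 was higher in PANC-1. PEX19, PEX16 and PEX6 fell by 0.40, 0.39 and 0.32 in AsPC-1, and CAT, catalase, rose by 0.27 in PANC-1. Of 13 ribosome rescue and termination genes, 1 was higher and 2 lower in AsPC-1 and 1 was higher in PANC-1: GSPT1, a release factor, rose by 0.17 and 0.24, and NEMF and EIF2S3 fell by 0.28 and 0.12 in AsPC-1. Of 7 genes of peptide loading, 1 was higher and 2 lower in AsPC-1, where TAPBPL and ERAP1 fell by 0.51 and 0.17 and B2M rose by 0.13, and 1 was higher and 1 lower in PANC-1, where TAPBP rose by 0.28 and ERAP1 fell by 0.37.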

How the data were processed

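For each of the 11 libraries the authors deposited unnormalized read counts by gene, as whole numbers. HISAT2, HTSeq and build hg19 appear, with no versions, in the submitters' processing notes. Whether counting used strand is not stated in the sources. All 58735 identifiers match GENCODE 29 (Ensembl 94), whose GRCh38 names and positions are used. Rows without a gene: 0.

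Members and the 23 lists (202 symbols) were chosen with earlier results of these data known. Groups came from sample titles. Each comparison was fitted over all genes with edgeR 4.0.16 in R 4.3.3 (glmQLFit and glmQLFTest after filterByExpr and TMM scaling, two-sided), and a gene was called at a Benjamini-Hochberg adjusted p under 0.05. The siRNA and control comparisons used only the libraries concerned, and the difference between lines used all 11 in 1 model. An SE is the absolute log2 change over the square root of F. CPM values use TMM factors over all 11 libraries. Every pair of replicates lay further apart than sampling noise allows. The fits were tested on simulated counts.

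A few genes and sequences are not reported here, also in the figures, though the counts include them. Named are the other members, with values per library for those called after siRNA in either line or between lines, for the 12 largest called differences between controls without overlap, and for ABCC1, ABCB1, ABCG2 and ABCC5 whatever their values. Of each partner list up to 3 genes with the largest change were named. TAP1, TAP2, the regulators' levels in controls, APOE and the neighbours of ABCB9 were added with their values in view. Each result was recomputed with upper-quartile or RLE scaling, without a low-count filter or with one of 5 CPM, in DESeq2 1.42.0, in a fit over all groups, with a replicate block, from the siRNA libraries for the difference between lines at baseline, and without each library. Sequences were searched in Python 3.11.15 with pandas 2.3.3, and figures drawn with matplotlib 3.10.9.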

Additional observations from a re-analysis of the deposited data

Results flagged for a closer look

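The response of ABCC1 to MYEOV siRNA differed between the lines by -0.6259 on the log2 scale (PANC-1 minus AsPC-1, adjusted p = 2.69e-06 in the interaction test of edgeR). It was higher in 3 of 3 siRNA libraries than in both AsPC-1 controls, while the PANC-1 groups overlapped. The response of ABCG2 differed by 0.4069 in the other direction (adjusted p = 0.00317 in the same edgeR test), with 3 of 3 AsPC-1 siRNA libraries below both controls. The depth of the MYEOV knockdown also differed, at 35.9% of control in AsPC-1 and 54.4% in PANC-1, and its part in these differences was not tested.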

How the results depend on the processing

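Between the controls all 31 members kept their call and direction under each alternative that tested them, 13 for 25 members and 12 for those left untested by the filter of 5 CPM. For ABCB11, ABCG1, ABCA4 and ABCG4 the rule on level had fixed the direction. In the difference between lines ABCC1 and ABCG2 kept theirs under all 17, and ABCC2 (-0.43, adjusted p = 0.0702 in edgeR) was called as well with no low-count filter (adjusted p = 0.0109 in edgeR) and without AsPC-1 siRNA replicate 2 (0.0295). Of the 10 members called in AsPC-1, ABCC1, ABCC2, ABCC3, ABCD3 and ABCG2 kept their call under every alternative run, and of the 4 in PANC-1 ABCB9 did. No called member changed direction under an alternative, while uncalled values near 0 could, and the members' median in AsPC-1 (-0.05) was 0.0010 without control replicate 1. DESeq2 called 6 members in AsPC-1 in place of 10. Leaving out each library in turn gave 6 to 9 members in AsPC-1, 1 to 5 in PANC-1 (against 4), 538 to 1712 genes over the whole table in PANC-1 (against 1356), and 305 to 1056 genes in the difference between lines (against 727), the lowest being without AsPC-1 control replicate 1, PANC-1 siRNA replicate 1, PANC-1 siRNA replicate 1 and AsPC-1 control replicate 1. For the lone AsPC-1 control then left, the spread is that of the other libraries.

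The replicate numbers have no stated pairing. Correlations of deviations from group means ran from -0.191 to 0.013 for same numbers and from -0.153 to 0.173 for different numbers. With 2 or 3 libraries per group the deviations are tied to each other, so these values cannot settle whether the numbers are paired. With the replicate block edgeR called 8 members in AsPC-1, 2 in PANC-1 and 2 in the difference between lines, and 628 genes in PANC-1 and 470 in the difference over the whole table. Among the calls lost under the block were ABCB9 and ABCC4 in AsPC-1 and ABCC4 and ABCD4 in PANC-1, and ABCA2 in AsPC-1 gained one (adjusted p = 0.0162 in edgeR). Other calls gained in edgeR were ABCA2 without AsPC-1 siRNA replicate 3 (0.0212), ABCC5 in AsPC-1 without control replicate 1 (0.0453), ABCB10 in PANC-1 without control replicate 2 (0.0154) and ABCF1 in PANC-1 in a fit over all groups (0.0196), each as an adjusted p. Depth limits the members at a few CPM, among them ABCC4 and ABCB6 in AsPC-1.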

Other observations

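Several of the 14 genes left out by level were still counted mainly in 1 line. ABCG5 and ABCG8, whose products form the sterol pump of liver and gut, had 21 and 9 counts summed over the AsPC-1 controls and 33 and 13 over those with siRNA. They had 2 and 1 over the PANC-1 controls and 2 and 4 over the PANC-1 siRNA libraries. ABCA9 had 5 and 7 counts in the AsPC-1 groups and 0 in all 6 PANC-1 libraries. ABCC12 went the other way, with 0 counts in all 5 AsPC-1 libraries and 8 and 6 in the PANC-1 groups. ABCC8, the sulfonylurea receptor of islet cells, had 0 counts in the AsPC-1 controls, 3 in the AsPC-1 siRNA libraries, and 18 and 10 in the PANC-1 groups. ABCC11 was spread over both lines, at 3 to 13 counts per library. These values rest on few counts and are given as a description.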
